A study of Mus musculus with 6 samples.

Results

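The Cyp3a family of cytochromes P450 was represented by 8 genes, Cyp3a11, Cyp3a13, Cyp3a16, Cyp3a25, Cyp3a41a, Cyp3a41b, Cyp3a44 and Cyp3a59, which were taken by name from the 25184 genes of the raw count table. All 8 were found there. The libraries came from primary mouse hepatocytes of the left lateral liver lobe, purified on a density gradient and kept overnight on collagen, and were sequenced as stranded, paired-end mRNA libraries. The mice were fed chow. The 3 control mice (Sucnr1 fl/fl, replicates 1 to 3) carried loxP-flanked Sucnr1, which encodes the receptor for extracellular succinate, and no Cre. The 3 Hep-Sucnr1 KO mice (replicates 3 to 5) carried the same floxed alleles together with Cre recombinase driven by the albumin promoter, which is active in hepatocytes. Age and sex of the mice used for sequencing were not given in the sources used here. RNA of 1 library of each genotype was extracted on day 1 and that of the other 2 of each genotype on day 2. The study asked how loss of the receptor in hepatocytes affects their zonation and metabolism, and for the Cyp3a genes the comparison shows whether their mRNA differed between the genotypes.

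CYP3A enzymes are haem-containing monooxygenases of the endoplasmic reticulum that oxidise steroids, bile acids and a large share of drugs, with electrons passed on by P450 oxidoreductase (Por) and cytochrome b5. Their transcription is induced through the xenobiotic receptors PXR (Nr1i2) and CAR (Nr1i3), on a background set by hepatocyte factors such as HNF4A. In mouse liver Cyp3a11 is the main adult form, Cyp3a16 is expressed mostly around birth, Cyp3a41 and Cyp3a44 are higher in females than in males, and P450 mRNA is known to fall when hepatocytes are put in culture.

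Of the 8 genes, 7 lie side by side within 677 kb of chromosome 5 (GRCm38, chr5:145436309-146113287), 6 of them on the minus strand and Cyp3a59 on the plus strand. Cyp3a13 lies 7.51 Mb away on the same chromosome (chr5:137892932-137921619, minus strand). Each gene has 13 exons in its annotated coding transcript, and each coding sequence is 1509 or 1512 bases long. A stretch of 10 codons, read from the annotated transcripts in exon 12 of each gene, shows how alike the members are. It codes for the loop that holds the haem iron and contains the tgc codon of the cysteine that binds it, codon 443 in Cyp3a11. In these lines all bases are those of the sense strand, and capitals mark each base that differs from Cyp3a11.
Cyp3a11: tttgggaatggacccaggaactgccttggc
Cyp3a16: tttgggaatggacccaggaactgcAttggc
Cyp3a41a: tttggAaTtggacccaggaactgcAttggc
Cyp3a41b: tttggAaTtggacccaggaactgcAttggc
Cyp3a44: tttggAaTtggacccaggaactgcAttggc
Cyp3a25: tttggAaatggacccaggaactgcAtAggc
Cyp3a59: tttggAaatggacccaggaactgcctAgAc
Cyp3a13: tttgggaGtggaccAaggaactgcAttggc
The stretch lies at chr5:145858805-145858834 in Cyp3a11, at chr5:145981468-145981497 in Cyp3a25, at chr5:137895267-137895296 in Cyp3a13 and at chr5:146109092-146109121 in Cyp3a59. Cyp3a16 differed from Cyp3a11 by 1 base there, and each of the other 6 by 3 bases. Cyp3a41a, Cyp3a41b and Cyp3a44 were the same in all 30 bases.

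Over the whole coding sequence, identity between members ran from 74.3% (Cyp3a16 and Cyp3a59) to 99.9% (Cyp3a41a and Cyp3a41b), with a median of 76.1% over the pairs. Cyp3a11 shared 95.2% of its coding bases with Cyp3a41a, 94.9% with Cyp3a44 and 92.8% with Cyp3a16, but only 75.9% with Cyp3a25, which is its nearest neighbour among the well-expressed members. Cyp3a25 and Cyp3a59 made a second close pair (97.5%). Cyp3a41a and Cyp3a41b differed at just 2 of 1512 coding positions, G120A and G336T, counted from the first base of the start codon with the base of Cyp3a41a first. Neither changes the encoded amino acid. These are the only coding bases that can tell the pair apart, and they are shown in capitals within 30 bases of exon 2 and of exon 5.
Cyp3a41a, exon 2, chr5:145717956-145717985: acaggggattcctggGcccaaacctctgcc
Cyp3a41b, exon 2, chr5:145582546-145582575: acaggggattcctggAcccaaacctctgcc
Cyp3a41a, exon 5, chr5:145709127-145709156: atttggcccagtgggGataatgagtaaagc
Cyp3a41b, exon 5, chr5:145573713-145573742: atttggcccagtgggTataatgagtaaagc

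This likeness set how far each count can be ascribed to 1 gene. Of all 100-base windows in the annotated transcripts of a gene, the share that also occurs, letter for letter, in a transcript of another gene was 90.8% for Cyp3a41a and 88.2% for Cyp3a41b. It was 7.4% for Cyp3a59 and 6.8% for Cyp3a25, which shared those windows with each other, 5.4% for Cyp3a44, 0.14% for Cyp3a11, 0.12% for Cyp3a16 and 0% for Cyp3a13. With windows of 50 bases the shares were 30.02% for Cyp3a59, 26.8% for Cyp3a25, 26.5% for Cyp3a44, 10.7% for Cyp3a16 and 6.7% for Cyp3a11, against 98.6% for Cyp3a41a and 93.5% for Cyp3a41b, and Cyp3a13 was still at 0%. For Cyp3a11 the 5040 windows of 50 bases were pooled over 2 annotated transcripts, and its longest coding transcript has 2344 bases. The share of Cyp3a11 may thus be understated, so its place below Cyp3a16 is not settled. Shares per coding transcript were not computed. At 100 bases, nearly all sequence of Cyp3a11, Cyp3a13 and Cyp3a16 was thus their own, whereas most reads of Cyp3a41a and Cyp3a41b cannot be told apart. Every window found in another gene lay in a further Cyp3a gene. How read pairs that align to several genes were counted was not given in the sources used here.

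**Figure D1:**
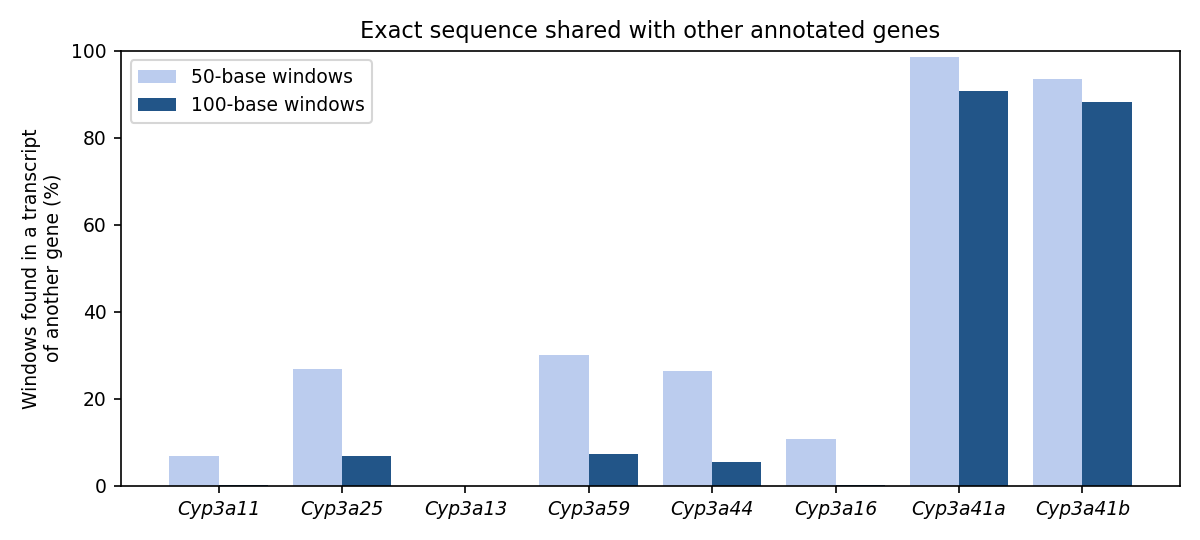
Share of the 50-base and 100-base windows of each Cyp3a gene's annotated transcripts (y axis, percent) that occur exactly in a transcript of another annotated gene, with genes in order of their level. Cyp3a41a and Cyp3a41b stand at 90.8% and 88.2% with 100-base windows, and no other member exceeds 7.4%.

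In the RefSeq promoter windows (GRCm38.p6, 250 bases before to 50 after the start, present for all 8 genes), repeats of the nuclear receptor half-sites AGGTCA and AGTTCA were looked for on both strands. As a direct repeat with 3 bases between the half-sites they occurred in 4 of 32851 promoters (0.0122%), and as an everted repeat with 6 bases between in 3 (0.00913%). No Cyp3a promoter window held either repeat, which says only that these letters are not in this window.

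The 6 libraries held between 30504248 and 38770694 counts. Sucnr1 itself stood at 6.71, 3.55 and 3.40 CPM (counts scaled to the library total with TMM factors) in Sucnr1 fl/fl replicates 1, 2 and 3, and at 2.66, 0.827 and 0.152 CPM in Hep-Sucnr1 KO replicates 3, 4 and 5. The groups did not overlap, and the log2 fold change was −2.23 ± 0.54 (SE, FDR = 0.998 in edgeR). Hepatocyte markers were abundant in every library (9 listed genes with summed levels between 67748 and 103048 CPM), against 33.5 to 128 CPM for 8 Kupffer cell genes, 21.3 to 47.8 CPM for 7 sinusoidal endothelial genes, 3.43 to 21.04 CPM for 7 stellate cell genes and 350 to 650 CPM for 6 cholangiocyte genes. The cholangiocyte sum lay almost wholly in Spp1 and Sox9. Epcam, Krt19, Cftr and Krt7 reached at most 2.61, 0.890, 0.561 and 0.330 CPM in any library. These genes were named after their values were seen. In such bulk samples, fewer cells of a type and less RNA per cell cannot be told apart.

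Scaled for length (TPM), the family spanned more than 3 orders of magnitude. Cyp3a11 led with 467 ± 165 TPM (mean ± SD over all 6 libraries), followed by Cyp3a25 with 183 ± 15.5, Cyp3a13 with 43.6 ± 4.97 and Cyp3a59 with 12.2 ± 2.11 TPM. Each of these 4 genes had a range over the libraries that did not overlap that of the next. Below them, Cyp3a44 reached 0.350 TPM, Cyp3a16 0.127, Cyp3a41a 0.127 and Cyp3a41b 0.116 TPM, and their ranges overlapped. The order was the same when the longest transcript was used as length instead of the merged exons. Cyp3a11 then averaged 744 TPM, and its ratio to Cyp3a25 was 4.45 instead of 2.55. For Cyp3a11 the merged exons span 5093 bases and the longest transcript 2802, but its longest coding transcript has 2344. The TPM of Cyp3a11, its rank among Cyp genes and its share of the family may thus be understated on both lengths. Levels per coding transcript were not computed. Besides the 8 genes, the table held Cyp3a57 with 17 and the pseudogene Cyp3a63-ps with 4 counts over all libraries.

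**Figure D2:**
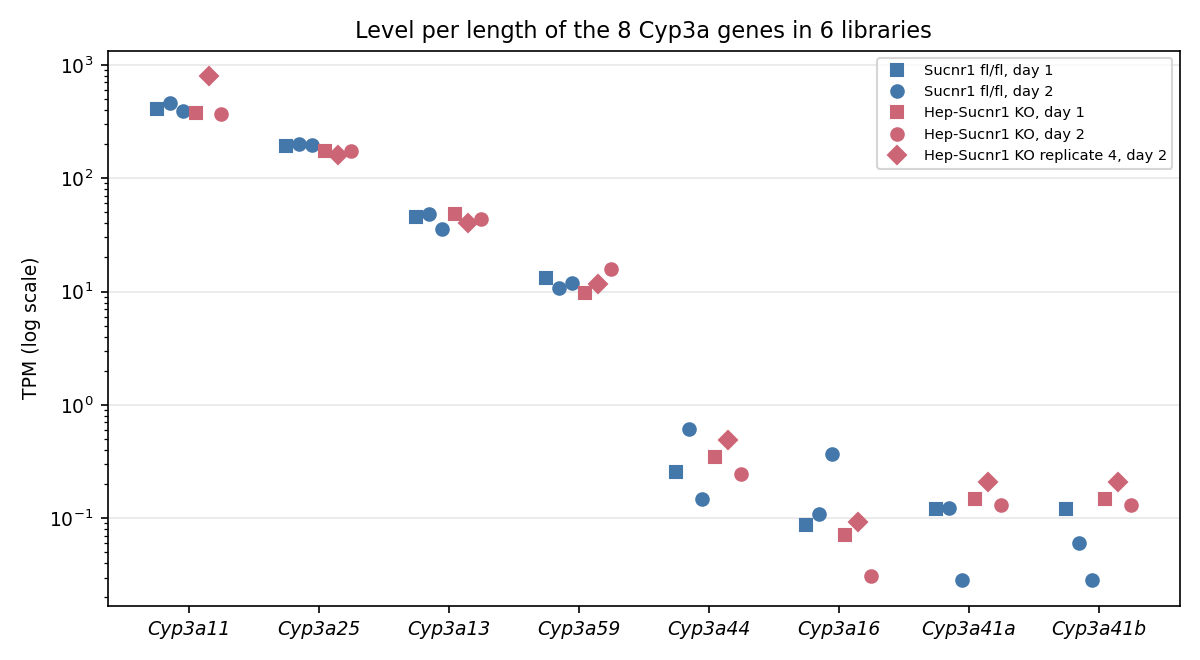
Level per length (TPM, log axis) of each Cyp3a gene in the 6 libraries, blue for Sucnr1 fl/fl and red for Hep-Sucnr1 KO, with squares for extraction day 1, circles for day 2 and a diamond for Hep-Sucnr1 KO replicate 4. Cyp3a11, Cyp3a25, Cyp3a13 and Cyp3a59 form separate steps from 467 to 12.2 TPM on average, and the other 4 genes lie below 1 TPM in every library.

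Together the 8 genes made up 0.129% to 0.153% of all counts in 5 libraries and 0.246% in Hep-Sucnr1 KO replicate 4. Among 85 Cyp genes Cyp3a11 ranked 6 by TPM in 4 libraries, 7 in Hep-Sucnr1 KO replicate 3 and 2 in Hep-Sucnr1 KO replicate 4 (3 or 4 in the other 5 libraries, and again 2 in replicate 4, with the longest transcript). The 3 female-biased Cyp3a members, Cyp3a41a, Cyp3a41b and Cyp3a44, lay near the detection limit beside other genes of known sex bias. Of 9 female-biased liver genes analysed, 8 stayed under 1 CPM in all libraries, whereas the 4 Y-linked genes had summed levels between 96.0 and 115 CPM in every library. The 11 listed male-biased genes summed to 9996 to 16242 CPM.

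No Cyp3a gene passed the test for a difference between the genotypes. In edgeR's quasi-likelihood test with extraction day in the model, 5 of the 8 passed the filter on low counts, and 0 of these 5 passed an FDR of 0.05 (0% of the 15105 genes tested did). At an unadjusted p below 0.05 the count was likewise 0 of 5, against 563 of 15105 genes (3.73%). Extraction day gave 0 of 5 at that p against 1132 genes (7.49%), and the interaction of genotype with day 0 of 5 against 557 genes (3.69%), with 0 genes past the FDR in either. DESeq2 gave an adjusted p for 4 of the 5, not for Cyp3a44, and called 0 of these 4, against 7 of the 11005 genes for which it gave one (0.0636%). The median log2 fold change over the 5 was 0.10 (−0.066 without Hep-Sucnr1 KO replicate 4), with 4 above and 1 below 0, against 0.00 over all genes tested. These counts leave room for differences of the sizes that the intervals below allow.

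Among the 4 well-expressed members, Cyp3a11 had the library farthest from the rest. In Sucnr1 fl/fl replicates 1, 2 and 3 it had 1073, 1122 and 1124 CPM, and in Hep-Sucnr1 KO replicates 3, 4 and 5 it had 990, 2228 and 1064 CPM. Hep-Sucnr1 KO replicate 4 was thus 1.98 times the highest of the others, while the other 5 libraries of both genotypes agreed closely, at 1075 ± 54.7 CPM (SD, n = 5, coefficient of variation 5.09%). The group means of 1107 ± 29.1 and 1427 ± 694 CPM (SD, n = 3 each) gave a log2 fold change of 0.33 ± 0.29 (SE), with an interval of 2 SE from −0.26 to 0.92 (edgeR, FDR = 0.998). A two-sided exact permutation test gave p = 1, where 0.1 is the smallest value 3 against 3 can reach. Without Hep-Sucnr1 KO replicate 4 the log2 fold change was −0.094 ± 0.16 (FDR = 0.999), so that the direction of the Cyp3a11 difference came from that library. Within extraction days the log2 ratio of knockout to control was −0.12 on day 1 (1 library each) and 0.55 on day 2, the day of replicate 4.

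Cyp3a25, whose enzyme also oxidises steroids, did not share this pattern. Its levels were 208, 200.4 and 232 CPM in the control libraries and 187, 185 and 204 CPM in the knockout libraries, where replicate 4 was the lowest of all 6. The means were 213 ± 16.5 and 192 ± 10.8 CPM, the log2 fold change was −0.15 ± 0.12 (interval of 2 SE −0.39 to 0.09, FDR = 0.998 in edgeR), and the groups overlapped (exact permutation p = 0.2). It was lower in the knockout by the same log2 ratio on both days, −0.15, and stayed between −0.21 and −0.09 when any library was left out. The difference was thus close in size to its SE.

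Cyp3a13, the member outside the cluster, varied little, with a coefficient of variation of 7.83% over the 6 libraries. It had 70.2, 67.9 and 59.5 CPM in the controls and 74.0, 65.3 and 72.7 CPM in the knockouts. The log2 fold change was 0.10 ± 0.11 (interval −0.12 to 0.32, FDR = 0.998), and it ranged from 0.05 to 0.15 over the fits that left out 1 library. Here Hep-Sucnr1 KO replicate 4 lay inside the range of the others.

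Cyp3a59 is the only member of the study's own list of pericentral genes, those expressed around the central vein. It reached 13.7, 10.4 and 13.4 CPM in Sucnr1 fl/fl and 10.03, 12.7 and 17.8 CPM in Hep-Sucnr1 KO libraries, so that the knockouts held both the lowest and the highest value. The log2 fold change was 0.09 ± 0.23 (interval −0.37 to 0.55, FDR = 0.998), and it turned to −0.14 without Hep-Sucnr1 KO replicate 5 and to −0.090 without Sucnr1 fl/fl replicate 2. On day 1 the log2 ratio was −0.45 and on day 2 it was 0.36. The test of that difference between the days gave 0.81 ± 0.40 on the log2 scale (edgeR, unadjusted p = 0.0916, FDR = 1.00).

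**Figure D3:**
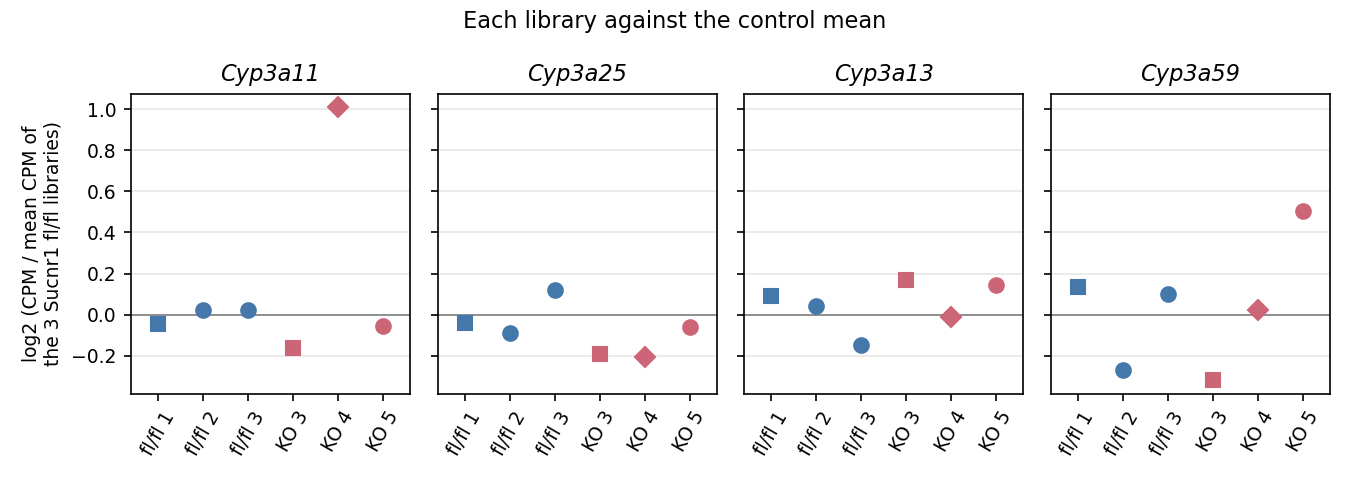
Log2 ratio of each library's CPM to the mean CPM of the 3 Sucnr1 fl/fl libraries (y axis) for the 4 well-expressed Cyp3a genes, by library (x axis), with colours and shapes for genotype and extraction day and a diamond for Hep-Sucnr1 KO replicate 4. The diamond stands apart for Cyp3a11, at 2228 CPM against a control mean of 1107 CPM, while for Cyp3a25 it is the lowest point and for Cyp3a13 and Cyp3a59 it lies within the range of the others.

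Near-zero members allowed little to be said. Cyp3a44 had 10, 19 and 5 counts in the controls and 11, 18 and 9 in the knockouts, and its log2 fold change of 0.21 ± 0.55 had an interval from −0.90 to 1.32 (FDR = 0.998). It changed sign without Hep-Sucnr1 KO replicate 4 (−0.066) and without Sucnr1 fl/fl replicate 3 (−0.15). Cyp3a16, Cyp3a41a and Cyp3a41b did not pass the filter and were not tested with it. The controls had 3, 3 and 11 counts of Cyp3a16 and the knockouts 2, 3 and 1, or 17 counts (95% Poisson interval 9.90 to 27.2) against 6 (2.20 to 13.1) in all. The higher sum of the controls lay in replicate 3 alone.

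Cyp3a41a had 5, 4 and 1 counts in the controls and 5, 8 and 5 in the knockouts. Its near-copy Cyp3a41b had 5, 2 and 1 against 5, 8 and 5, the same number in 5 of the 6 libraries. In CPM the groups did not overlap for either gene, and for none of the other 6 members, with the knockouts higher (exact permutation p = 0.1, the smallest possible). Such a lack of overlap with the knockouts higher was seen for 4.88% of all genes of the table (8.26% in either direction) and for 4.92% of the 3133 genes with 10 to 40 counts in all. In raw counts, 1 control library and 2 knockout libraries tied at 5. The sums of Cyp3a41a were 10 (4.80 to 18.4) and 18 (10.7 to 28.4), with overlapping Poisson intervals that cover counting error only, and since these 2 genes share their sequence they are 1 measurement and not 2. Of their 50-base windows, Cyp3a41a shared 7.2%, Cyp3a41b 6.7%, Cyp3a44 7.0% and Cyp3a16 6.1% with Cyp3a11, which had 254431 counts in all. Whether reads of Cyp3a11 entered the counts of these genes was not tested. With no filter on counts, Cyp3a16 had a log2 fold change of −1.42 ± 0.90, Cyp3a41a 0.89 ± 0.75 and Cyp3a41b 1.25 ± 0.79, each with an FDR of 0.951.

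**Figure D4:**
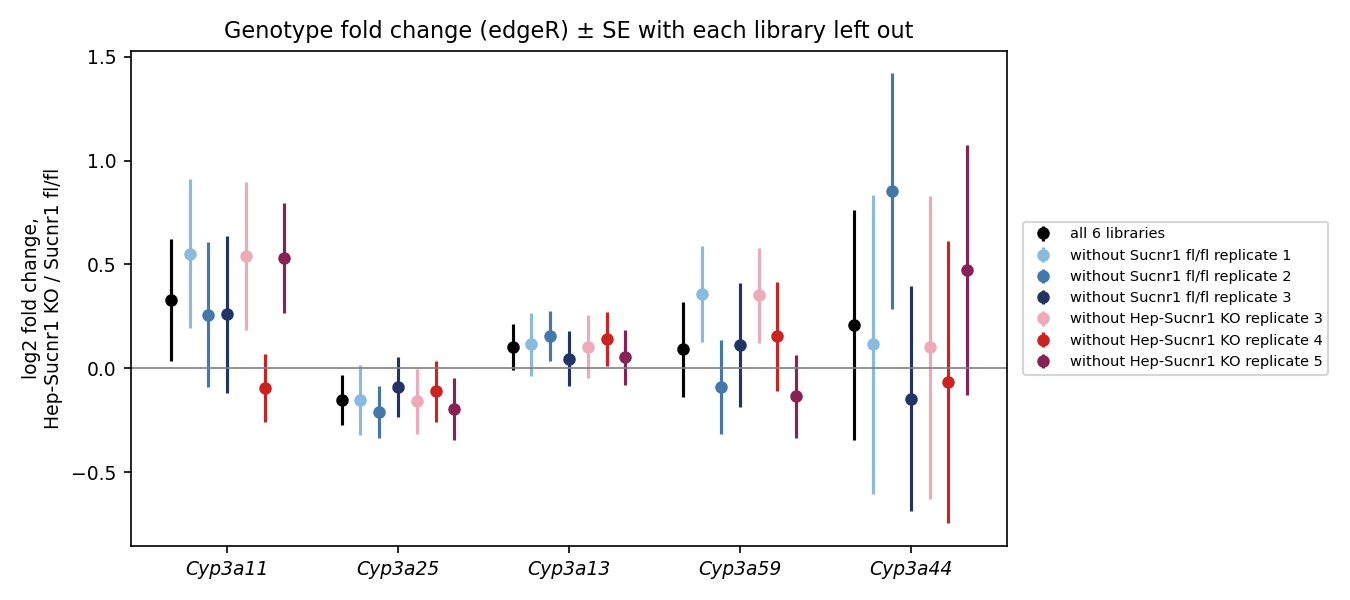
Genotype log2 fold change (edgeR, points) ± SE (bars) of the 5 Cyp3a genes tested, with all 6 libraries (black) and with each library left out (colours). Cyp3a11 goes from 0.33 to −0.094 without Hep-Sucnr1 KO replicate 4, Cyp3a25 stays below and Cyp3a13 above 0, and Cyp3a44 and Cyp3a59 lie on both sides.

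Summed over the family, the level was 1365, 1402 and 1429 CPM in the controls and 1262, 2491 and 1360 CPM in the knockouts. The means of 1399 ± 32.3 and 1704 ± 683 CPM correspond to a log2 ratio of 0.28, which became −0.094 without Hep-Sucnr1 KO replicate 4. Leaving Cyp3a11 out of the sum gave 292 ± 12.9 CPM for Sucnr1 fl/fl and 277 ± 16.5 CPM for Hep-Sucnr1 KO, a log2 ratio of −0.08. Cyp3a11 accounted for 61.3% to 63.9% of the family's TPM in 5 libraries and for 78.8% in replicate 4, where its ratio to Cyp3a25 was 4.93 against 1.98 to 2.29 elsewhere. With the longest transcript as length, the share was 73.6% to 75.7% in 5 libraries and 86.8% in replicate 4, and the ratio 8.61 against 3.46 to 3.998. A change of length rescales a gene alike in every library, so the second length is no separate check of replicate 4. Cyp3a59, in contrast, amounted to 5.39% to 6.88% of Cyp3a25 in the controls and Hep-Sucnr1 KO replicate 3, to 7.15% in replicate 4 and to 9.04% in replicate 5.

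By the count of genes that stood out in 1 library, replicate 4 was at the high end and not alone. Of 7066 genes with a mean of at least 10 CPM, 58 (0.821%) were at least 1.5 times as high in Hep-Sucnr1 KO replicate 4 as in any other library, and Cyp3a11 was one of them. The number was 51 in Sucnr1 fl/fl replicate 1 and between 1 and 12 in the other 4 libraries. The genes whose log2 CPM was most like that of Cyp3a11 over the 6 libraries were Gstm6, a glutathione transferase (Pearson r = 0.992, Spearman rho = 0.829), Glcci1 (0.989 and 0.829), Akr1c20, an aldo-keto reductase (0.989 and 0.486), Nr1h3, the gene of the oxysterol receptor LXRα (0.983 and 0.886), and Dusp23, a phosphatase (0.982 and 0.6). Gstm6 had 72.3 CPM in replicate 4 and 43.3 to 46.9 CPM in the others, and Akr1c20 50.9 against 26.5 to 28.5 CPM. Glcci1 was near the floor, at 0.443 CPM in replicate 4 and 0.190 to 0.241 CPM in the others. Without that library the r of these 5 genes lay between 0.379 (Akr1c20) and 0.921 (Glcci1) over 5 libraries. The likeness thus rests largely on 1 point.

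None of the regulators of Cyp3a transcription passed the genotype test. Of 17 listed, 16 were tested, 0 rose, 0 fell, and the median log2 fold change was −0.08. The mRNA of the PXR gene Nr1i2 was even over the libraries, from 29.4 to 35.4 CPM with 34.97 CPM in Hep-Sucnr1 KO replicate 4 (log2 fold change −0.03 ± 0.12). Nr1i3, the gene of CAR, varied more, from 5.59 CPM in Hep-Sucnr1 KO replicate 5 to 24.0 CPM in replicate 4 (0.12 ± 0.47). Hnf4a had the highest log2 fold change of the list, 0.19 ± 0.28, and was highest in replicate 4, at 313 CPM against 152 to 253 CPM. The glucocorticoid receptor gene Nr3c1 stood at −0.07 ± 0.13. Dbp, a clock-driven transcription factor, was lowest in the list at −0.98 ± 0.26, with an FDR of 0.998, and replicate 4 had the lowest Dbp level of all libraries, 8.24 CPM.

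The same held for the partners of P450 catalysis. All 5 electron transfer genes were tested with 0 called in either direction and a median of 0.07, from Por (−0.16 ± 0.15) to Cyb5b, a mitochondrial cytochrome b5 (0.26 ± 0.19). Por had 390 CPM in replicate 4, within the 381 to 548 CPM of the other libraries. The 8 haem synthesis genes had a median of 0.19, with 0 called, and Fech, which inserts the iron, was the lowest at −0.09 ± 0.10. Replicate 4 was the highest library for 5 of these 8, against 2914 of all 15105 genes tested (19.3%). Chosen after its value was seen, Alas1, the rate-limiting enzyme of haem synthesis, had 273 CPM there and 97.2 to 183 CPM in the other libraries.

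Other genes known to respond to PXR and CAR lay on both sides of 0. All 18 listed were tested, 0 rose, 0 fell, and 9 had a log2 fold change above and 9 below 0. Ces2c, a carboxylesterase, was the highest at 0.78 ± 0.42, with 183 CPM in replicate 4 and 44.5 to 68.4 CPM elsewhere. Cyp2b10, the classical CAR target, was the lowest at −0.78 ± 0.70, and replicate 4 had the lowest level, 0.620 CPM against 1.20 to 5.10 CPM. Replicate 4 was the highest library for 6 of the 18 genes, against 19.3% of all genes tested. It was the lowest for Cyp2b10, at under 1 CPM, and for Abcb1a, Gsta1 and Ephx1, named after their values were seen.

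Landmarks of the pericentral zone, where CYP3A enzymes are mainly found, were highest in the same library as Cyp3a11 for 7 of 9 genes, against 19.3% of all genes tested. Their summed level was 5303 CPM in Hep-Sucnr1 KO replicate 4 and 1299 to 3068 CPM in the other 5, with the lowest in Hep-Sucnr1 KO replicate 5. Cyp2e1 and Glul, named after their values were seen, made up most of the sum (3430 and 1002 CPM in replicate 4). None of the 9 was called between the genotypes, with a median log2 fold change of 0.23, from Tbx3 (−0.08 ± 0.51) to Slc1a2, a glutamate transporter (1.56 ± 0.67). Cyp3a59 was highest in replicate 5, where the sum of the landmarks was lowest, and Cyp3a11 in that library was 1064 CPM, just below the lowest control (1073 CPM). The male-biased genes were highest in replicate 4 for 8 of 11, against 19.3% of all genes tested. Their median was 0.12, from Ugt2b38 (−0.24 ± 0.18) to Elovl3, a fatty acid elongase (0.66 ± 0.37), with 0 called. Their sum was not highest there, at 10836.5 CPM within a range of 9996 to 16242 CPM over the libraries. Mup20, named after its value was seen, made up most of that sum (7772 CPM in replicate 4). Of the female-biased genes only Cyp2a4 (0.51 ± 0.35) and Fmo2 (−0.89 ± 0.39) could be tested. The Y-linked genes lay between −0.26 (Kdm5d) and 0.08 (Eif2s3y).

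Acute phase genes, whose induction goes along with low P450 mRNA in liver, did not pass the test either. Of 12 tested 0 were called, 11 had a log2 fold change above 0, 7 of these at an unadjusted p below 0.05 (3.73% of all genes tested had such a p in either direction), and the median was 0.49, from Stat3 (−0.16 ± 0.19) to Saa3 (0.82 ± 0.36). Their summed level was 15274 to 17356 CPM in the controls and 20251 to 22272 CPM in the knockouts, where replicate 4 was the lowest. Hp and Fgb, named after their values were seen, made up most of each sum. The sums did not overlap, as was the case for 10.6% of single genes tested. At that unadjusted p the regulators had 2 genes below 0, the other targets of PXR and CAR 1 below, the pericentral landmarks 1 above and the stellate cell genes 1 below, and the other lists had 0. Among 8 genes that rise as hepatocytes lose their identity in culture, the 3 most abundant, Krt8, Krt18 and Actb, were lowest in replicate 4 and carried the sum there, 5363 CPM against 7011 to 8806 CPM, while the other 5 were not lowest in it. Krt8, Krt18 and Actb were named after their values were seen. The median log2 fold change of the list was −0.08, from Cd44 (−0.32) to Tuba1a (0.22). The medians of the other cell type lists were −0.00 for hepatocytes, −0.44 for Kupffer cells, −0.22 for sinusoidal endothelial cells, −0.38 for stellate cells and 0.06 for cholangiocytes, with 0 genes called in any. The part of zonation, culture state or other cells in the Cyp3a11 level of replicate 4 was not tested.

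**Figure D5:**
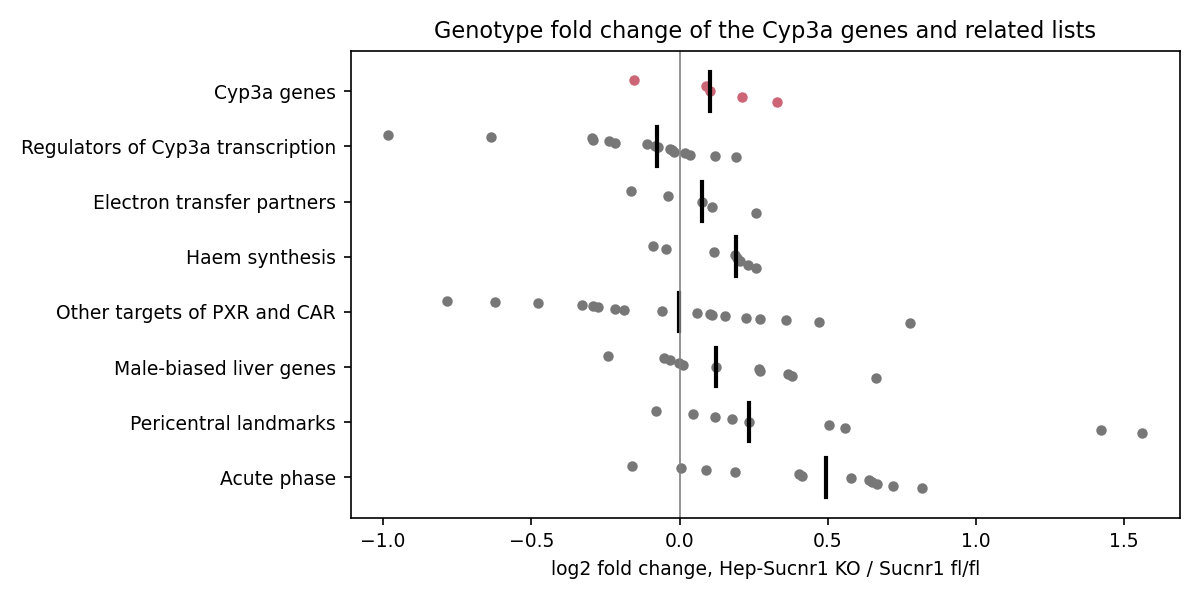
Genotype log2 fold change (edgeR, x axis) of each gene tested among the Cyp3a genes (red) and 7 lists of related genes (grey), with a black bar at each median. The Cyp3a median of 0.10 lies between those of the regulators (−0.08) and of the pericentral landmarks (0.23), and no gene in the plot passed an FDR of 0.05.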

How the data were processed

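The authors trimmed the read pairs (Trim Galore 0.6.7), aligned them to GRCm38 (STAR 2.7.10a), counted them by strand per Ensembl gene with featureCounts and deposited raw counts per gene. Totals of 30504248 to 38770694 counts made counting error small for the 4 abundant members; the common biological coefficient of variation was 0.206. Samples were grouped from their labels. From the counts, CPM with TMM factors (0.954 to 1.09), TPM over merged exons of GENCODE M21, and edgeR 4.0.16 quasi-likelihood tests (R 4.3.3, extraction day and genotype, Benjamini-Hochberg adjustment, threshold 0.05) were computed for 15105 genes with a mean normalized count above 5. FDR denotes the adjusted p of that fit over all genes tested. DESeq2 1.42.0, other scalings and filters, no day term, day 2 alone, a robust fit and leaving out each library were alternatives. The tests were checked on simulated counts. For single values of the genotypes a two-sided exact permutation test was used.

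The replicates of a genotype are separate mice in the study's description, and p-values measure the spread between them. Genes named were all 8 members, Sucnr1, the 5 genes most correlated with the most abundant member, and in each list the highest and lowest log2 fold change with the main receptors and Por; the others are marked, and 1 gene that the rule names is not reported here. Members and lists were chosen with earlier results of these data known. Shared windows and coding sequences were read from annotated transcripts, not from merged exons of a genome, and coding identity came from global alignment. No genome or protein sequence was used here.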

Additional observations from a re-analysis of the deposited data

How the results depend on the processing

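No Cyp3a gene passed an FDR of 0.05 under any of the 14 alternatives (lowest FDR of a member 0.909), though DESeq2 gave no adjusted p for Cyp3a44. The number of genes called for genotype stayed at 0 except with DESeq2 (7). For extraction day it was 0, but 225 with DESeq2 and 122 with no filter, and for genotype by extraction day 0, but 4 with DESeq2. Leaving out each library in turn, the log2 fold change ranged from −0.094 to 0.55 for Cyp3a11, from −0.15 to 0.85 for Cyp3a44 and from −0.14 to 0.36 for Cyp3a59, changing sign for each. Cyp3a11 turned to −0.094 and Cyp3a44 to −0.066 without Hep-Sucnr1 KO replicate 4, Cyp3a44 to −0.15 without Sucnr1 fl/fl replicate 3, and Cyp3a59 to −0.14 without Hep-Sucnr1 KO replicate 5 and −0.090 without Sucnr1 fl/fl replicate 2. The median over the members ranged from −0.066 to 0.15 and the log2 ratio of the summed level from −0.094 to 0.46, both lowest without Hep-Sucnr1 KO replicate 4. Cyp3a13 and Cyp3a25 kept their sign throughout. No paired analysis was possible because the genotypes share only the replicate number 3 in the labels. With 3 libraries a group, differences within 2 SE could not be told from 0, and for Cyp3a16, Cyp3a41a and Cyp3a41b the counts themselves were the limit. A difference just beyond 2 SE need not reach an unadjusted p of 0.05 either. The interaction of genotype with day for Cyp3a59, 0.81 ± 0.40, had an unadjusted p of 0.0916 in edgeR.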
